A study of Mus musculus with 8 samples.

Results

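The genes described here are 10 smooth muscle contractile genes of the mouse: Acta2, Actg2, Myh11, Myl9, Tagln, Cnn1, Tpm2, Lmod1, Des and Tnnt2. They were taken by symbol from 2 deposited count tables that share 21997 genes, and all 10 were found in both. RNA was measured in 8 single follicles from ovaries of C57BL/6 mice, with 1 library per follicle. Preantral follicles (PF) and small antral follicles (SAF) came from wild type mice (WT) or, as the labels put it, from female germline stem cells that had been transplanted (FGSCs, here TF). PF-WT and PF-TF, like SAF-WT and SAF-TF, held 2 libraries each, and every mean below is over n = 2. All follicles were freed with a needle and their polyadenylated RNA was amplified with the SMARTer low input kit. The sources used here do not give the age of the mice, the hosts of the transplant or which cells of TF follicles were of transplant origin. Whether 2 follicles of 1 group came from 1 mouse is not given either, so p-values measure only the spread between these follicles.

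Smooth muscle cells contract when myosin, switched on by phosphorylation of its light chain, pulls on actin filaments that are decorated with tropomyosin and calponin. In the ovary such cells lie in vessel walls and in the outer layer of the theca, the sheath that forms around a growing follicle, while granulosa cells and the oocyte are not muscle. Many smooth muscle genes are switched on by serum response factor with its partner myocardin at short promoter elements named CArG boxes.

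Promoter windows (250 bases before to 50 bases after an annotated start, RefSeq, GRCm38.p6) were found for 7 of the 10 genes, namely Acta2, Cnn1, Des, Myl9, Tpm2, Lmod1 and Tnnt2. Actg2, Tagln and Myh11 are named only. An exact CArG box, which reads alike on both strands, stood in the window of 1 of the 7 genes, Myl9, and in 1.63% of all 32851 windows. Allowing at most 1 mismatch, 4 of the 7 genes held one, against 21.1% of all windows. CATTCC, searched on both strands and overlapping no CArG box shown here, stood in windows of 3 of the 7 genes and in 14.7% of all windows. The 4 windows with a CArG box are shown, with the boxes in capitals. Whether the boxes bear on any comparison below was not tested. In Myl9 (chr2:156775214-156775513, plus strand) the exact box starts at window position 90, counted from 1 at the 5′ end, and a box with a mismatch at 152. In Acta2 (chr19:34255324-34255623, minus strand) boxes with a mismatch start at 167 and 217. They start at 62 and 87 in Lmod1 (chr1:135324563-135324862, plus strand), and at 113 and 163 in the first of 2 Tnnt2 windows (chr1:135836084-135836383, plus strand). A match is a description of these letters, not a bound site.
Myl9: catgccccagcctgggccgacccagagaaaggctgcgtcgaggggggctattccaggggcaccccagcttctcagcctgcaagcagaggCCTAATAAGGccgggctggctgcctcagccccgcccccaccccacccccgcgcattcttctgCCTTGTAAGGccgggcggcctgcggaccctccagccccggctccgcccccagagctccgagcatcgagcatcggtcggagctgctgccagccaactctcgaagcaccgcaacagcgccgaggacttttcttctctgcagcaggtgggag
Acta2: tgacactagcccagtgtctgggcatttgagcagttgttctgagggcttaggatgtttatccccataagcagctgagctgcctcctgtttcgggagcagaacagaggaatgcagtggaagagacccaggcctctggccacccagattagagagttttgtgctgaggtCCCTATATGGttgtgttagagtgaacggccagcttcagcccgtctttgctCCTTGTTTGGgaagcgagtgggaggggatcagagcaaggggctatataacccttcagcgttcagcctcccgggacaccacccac
Lmod1: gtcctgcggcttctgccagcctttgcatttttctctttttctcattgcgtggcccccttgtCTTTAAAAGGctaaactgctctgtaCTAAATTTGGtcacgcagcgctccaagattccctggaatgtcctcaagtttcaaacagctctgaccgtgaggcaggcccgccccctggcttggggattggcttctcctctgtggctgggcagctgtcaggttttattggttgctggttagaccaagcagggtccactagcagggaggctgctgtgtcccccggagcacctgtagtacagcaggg
Tnnt2: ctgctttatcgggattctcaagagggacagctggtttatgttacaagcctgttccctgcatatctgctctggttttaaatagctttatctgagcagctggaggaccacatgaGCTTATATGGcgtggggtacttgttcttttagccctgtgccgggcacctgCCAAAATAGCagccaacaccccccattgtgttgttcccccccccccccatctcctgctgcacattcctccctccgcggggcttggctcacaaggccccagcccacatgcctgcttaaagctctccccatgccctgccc

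Total counts over the shared genes ran from 7654700 to 9804822 per library. Levels are given as CPM, counts per 1000000 counts of the library after TMM scaling, and 3 counts, the limit that a count of 0 allows, corresponded to 0.301 to 0.394 CPM. Replicates correlated at 0.953 to 0.976 in log2 CPM across genes, which are not independent replicates. All 14 oocyte and all 12 granulosa markers listed had counts in every library, but their summed CPM differed between groups. Preantral oocyte sums were 7010 to 8190 CPM (PF-WT) and 14900 to 17500 (PF-TF). Small antral oocyte sums were 551 and 2680 (SAF-WT replicates 1 and 2) and 228 to 457 (SAF-TF). Granulosa sums were 3240 to 4060 (PF-WT), 4020 to 4610 (PF-TF), 1310 to 1380 (SAF-WT) and 2240 to 3490 (SAF-TF). CPM are relative to all RNA of a whole follicle, so fewer cells of a type and less RNA per cell cannot be told apart.

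Acta2, smooth muscle alpha-actin (chr19:34240336-34255585), was present in every follicle. It had 297 and 95.4 CPM in the PF-WT replicates 1 and 2 against 24.5 and 46 in PF-TF, and 1690 and 1480 in SAF-WT against 870 and 553 in SAF-TF. Actg2, the gamma-actin of enteric smooth muscle (chr6:83512909-83536251), had 49.9 and 18.8 CPM in PF-WT against 7.75 and 7.12 in PF-TF, and 258 and 235 in SAF-WT against 179 and 100 in SAF-TF. Both actins stood in the same order of groups, SAF-WT above SAF-TF above PF-WT above PF-TF, and no library of one group overlapped another group.

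Myh11, the smooth muscle myosin heavy chain (chr16:14194527-14292188), had 45 and 13.9 CPM in PF-WT against 25.9 and 16.4 in PF-TF, and 163 and 126 in SAF-WT against 66.9 and 42.7 in SAF-TF. Its preantral groups overlapped. Myl9, the regulatory light chain (chr2:156775408-156781657), had 185 and 69 CPM in PF-WT against 51.3 and 63.8 in PF-TF, and 1210 and 1010 in SAF-WT against 692 and 518 in SAF-TF. Its 4 groups did not overlap, and the PF-TF libraries lay just below the lower PF-WT library.

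Tagln, transgelin or SM22, an actin cross-linker (chr9:45929628-45936058), had 197 and 43.5 CPM in PF-WT against 6.09 and 16.8 in PF-TF, and 873 and 668 in SAF-WT against 734 and 503 in SAF-TF. Its small antral groups overlapped and its preantral groups did not. Cnn1, calponin, an inhibitor of myosin's ATPase (chr9:22099221-22109221), had 29.2 and 17.6 CPM in PF-WT against 22.6 and 13.9 in PF-TF, and 46.8 and 48.8 in SAF-WT against 63.6 and 33.8 in SAF-TF. Cnn1 overlapped between WT and TF at both stages. Tpm2, beta-tropomyosin (chr4:43513726-43523583), had 125 and 30 CPM in PF-WT against 8.2 and 19.5 in PF-TF, and 1100 and 817 in SAF-WT against 415 and 305 in SAF-TF. Its groups were fully separate, as for the actins.

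Lmod1, leiomodin, which starts new actin filaments (chr1:135324813-135368065), had 0.788 and 0.222 CPM in PF-WT against 0 and 0.201 in PF-TF, and 10.9 and 7.82 in SAF-WT against 10.2 and 4.51 in SAF-TF. Des, desmin, the muscle intermediate filament (chr1:75360292-75368579), had 1.84 and 1.89 CPM in PF-WT against 0 and 0.1 in PF-TF, and 3.33 and 3.79 in SAF-WT against 8.36 and 5.75 in SAF-TF. In PF-TF these are 2 counts of Lmod1 and 1 count of Des over both libraries. Tnnt2, cardiac troponin T, a tropomyosin-binding subunit known from heart muscle (chr1:135836315-135852268), had 4.46 and 1.33 CPM in PF-WT against 0 and 0.201 in PF-TF, and 54.8 and 49.8 in SAF-WT against 3.74 and 4.29 in SAF-TF. For Tnnt2, the SAF-TF libraries lay between the PF-WT libraries and far below SAF-WT.

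**Figure D1:**
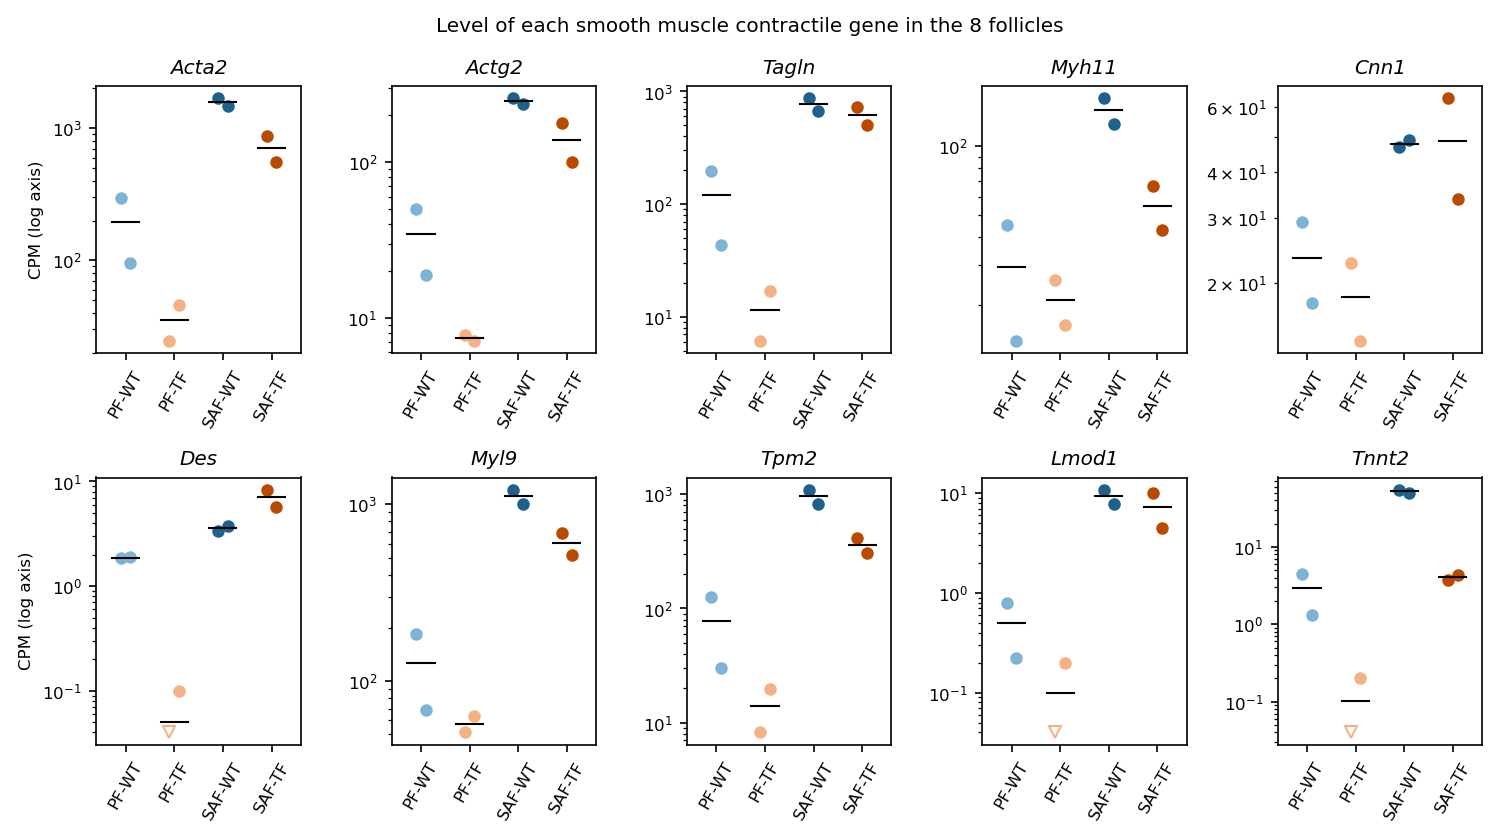
CPM of each of the 10 genes (log axis) in each follicle by group. Points are libraries, the bar is the group mean, and an open triangle marks a library with 0 counts. Des, Lmod1 and Tnnt2 were at 0 in 1 PF-TF library, and Tnnt2 in SAF-TF lay near 4 CPM against about 50 in SAF-WT.

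Per kilobase of the longest coding transcript (GENCODE), the order of mean levels in SAF-WT was Myl9 at 984 CPM per kb, Acta2 at 781, Tagln at 483, Tpm2 at 440, Actg2 at 185, Tnnt2 at 43.6, Myh11 at 22.1, Cnn1 at 20.1, Lmod1 at 2.37 and Des at 1.18. Tagln and Tpm2, and likewise Myh11 and Cnn1, differed by less than the spread of their replicates. In PF-TF, Myl9 also led at 51.1 CPM per kb, ahead of Acta2 at 17.3. Des, Lmod1 and Tnnt2 were below the level of 3 counts there, so their order in PF-TF was not resolved. Of the 50-base stretches of these transcripts, 0.352% of those of Acta2 were shared with the pseudogene Actg-ps1 and 0.4% of those of Myh11 with Myh9, while the other 8 genes shared none. Pcsk7, which overlaps Tagln over 2480 bases, had 8 to 77 counts per library. The sources used here give no strand setting for the counting, so reads of such overlaps cannot be told apart.

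In wild type follicles the contractile genes were higher in small antral than in preantral follicles. These are separate follicles, so rose and fell with stage mean higher and lower in SAF than in PF, relative to all RNA. Of the 10 genes, 8 rose and 0 fell by edgeR's quasi-likelihood test, where 12.7% of 17925 genes rose and 22.5% fell. All 10 were higher in both SAF-WT than in both PF-WT libraries, as were 30.9% of genes. The median log2 fold change of the 10 was 2.93, against -0.20 over all genes. Acta2 rose from 196 ± 142 to 1590 ± 148 CPM (SD, log2 fold change 3.02 ± 0.51 SE, edgeR adjusted p = 0.00186). Myl9 rose by 3.13 ± 0.41 (adjusted p = 0.000529) and Actg2 by 2.85 ± 0.44 (adjusted p = 0.00115) on the log2 scale. The steepest were Lmod1 (4.22 ± 0.81, adjusted p = 0.0037) and Tnnt2 (4.19 ± 0.57, adjusted p = 0.000606), from 8 and 46 counts over the PF-WT libraries. Their pooled ratios were 19.5 (95% interval 9.66 to 45.9, counting error only) and 18.9 (14.1 to 26). Tpm2 (3.63 ± 0.62), Tagln (2.68 ± 0.64) and Myh11 (2.30 ± 0.50) rose too, with adjusted p of 0.002, 0.00999 and 0.00641. The other two did not pass, with Cnn1 at 1.03 ± 0.39 (adjusted p = 0.0635) and Des at 0.93 ± 0.59 (adjusted p = 0.246). Without PF-WT replicate 1 the 10 log2 fold changes ran from 1.02 to 5.42 with a median of 4.15, and without PF-WT replicate 2 from 0.71 to 3.54 with a median of 2.36. Of the 10, 9 passed without PF-WT replicate 1 or without either PF-TF library.

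In TF follicles all 10 genes rose from the preantral to the small antral stage (18.2% of genes rose and 25% fell), and all 10 did so without overlap of libraries (34.8% of genes). The median log2 fold change was 4.52, against -0.08 over all genes. Tagln rose from 11.4 ± 7.54 to 619 ± 163 CPM (5.75 ± 0.74, edgeR adjusted p = 0.000308). Acta2 rose by 4.34 ± 0.54 (adjusted p = 0.000254), Actg2 by 4.23 ± 0.47 (adjusted p = 0.000144), Tpm2 by 4.70 ± 0.66 (adjusted p = 0.000481) and Myl9 by 3.39 ± 0.42 (adjusted p = 0.000238) on the log2 scale. Des, Lmod1 and Tnnt2 passed as well (adjusted p of 0.000313, 0.00109 and 0.00136) against 1, 2 and 2 preantral counts. Their pooled ratios were 134 (95% interval 23.7 to 5350), 70.3 (19.1 to 587) and 38.1 (10.2 to 320), with intervals that cover counting error only. The smallest rises were those of Cnn1 (1.42 ± 0.39, adjusted p = 0.0158) and Myh11 (1.38 ± 0.49, adjusted p = 0.0444). Cnn1 did not pass without PF-TF replicate 2 (1.24) or SAF-TF replicate 1 (0.90). Myh11 passed only where a PF-WT library was left out, and its value was 1.85 and 1.21 without PF-TF replicates 1 and 2, 1.02 and 1.66 without SAF-TF replicates 1 and 2, and 1.37 and 1.38 without SAF-WT replicates 1 and 2. Over the 10 genes, the values ran from 1.85 to 6.05 without PF-TF replicate 1 and from 1.21 to 9.06 without PF-TF replicate 2. Of the 10 genes, 8 rose in WT and in TF alike, as did 8.96% of all genes.

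**Figure D2:**
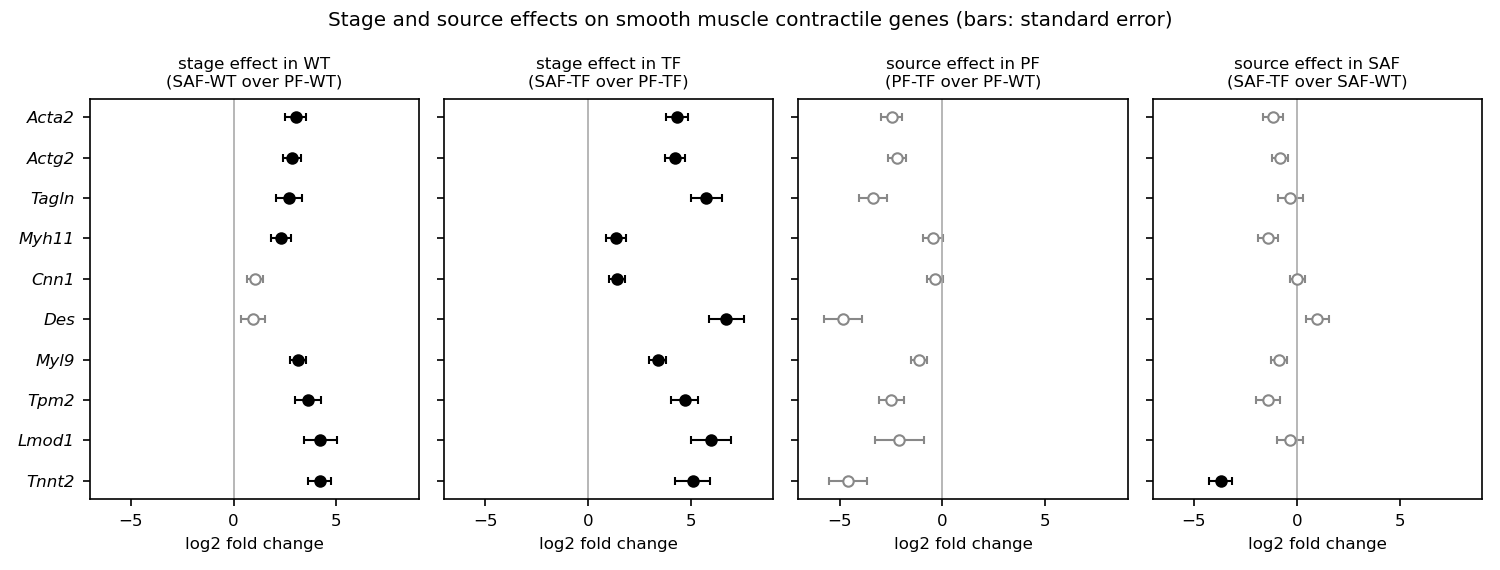
Log2 fold change (x axis) of each of the 10 genes in 4 comparisons, with bars of 1 standard error. Filled points passed the edgeR test after adjustment over all genes. In the stage comparisons 8 (WT) and 10 (TF) points are filled, and in the source comparisons only Tnnt2 at the small antral stage.

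The size of the stage effect was compared between TF and WT by an interaction term, which 0.658% of genes passed upwards and 0.245% downwards. Des was the 1 of 10 genes to pass (difference of log2 fold changes 5.80 ± 1.09, edgeR adjusted p = 0.0447). Its stage effect was 6.73 in TF and 0.93 in WT. That call rests on the 1 PF-TF count of Des and held without PF-TF replicate 2 (8.02) but not without any other library, nor with a replicate block (5.80 ± 1.18, edgeR adjusted p = 0.0881). The values in those cases were 5.07 without PF-TF replicate 1, 5.82 and 5.78 without PF-WT replicates 1 and 2, 5.72 and 5.90 without SAF-WT replicates 1 and 2, and 5.52 and 6.06 without SAF-TF replicates 1 and 2. For Tagln the interaction was 3.07 ± 0.88 (adjusted p = 0.139), and it passed without PF-WT replicate 2. The other 8 genes lay between -0.93 (Myh11) and 1.74 (Lmod1) and did not pass. In the authors' deposited table of wild type follicles, Des had a log2 ratio of 1.28 with an FDR of 1 and Cnn1 one of 1.36 with an FDR of 8.66e-15.

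At the preantral stage the contractile genes had lower levels in TF than in WT, without passing the test after adjustment. By edgeR 0 of 10 passed, where 0.151% of genes passed downwards and 0.0669% upwards. At an unadjusted p under 0.05 there were 7 lower (13.3% of genes), and DESeq2 called 7 lower (6.25% of the 15839 genes it adjusted). Libraries did not overlap for 8 of 10 genes, all lower in PF-TF, as for 26.1% of all genes. The exceptions were Myh11 (-0.47 ± 0.49) and Cnn1 (-0.36 ± 0.39). Lmod1 (-2.09 ± 1.19, edgeR adjusted p = 0.353) is among the 8 by library scaling only. Replicate 2 of PF-WT and replicate 2 of PF-TF each held 2 counts of it. With 8 counts in PF-WT and 2 in PF-TF, its pooled ratio was 4.57 in favour of WT (95% interval 0.912 to 44.2). The median log2 fold change was -2.34, against -0.03 over all genes. Tagln was at 120 ± 108 CPM in PF-WT and 11.4 ± 7.54 in PF-TF (-3.38 ± 0.67, edgeR adjusted p = 0.058). Acta2 (-2.47 ± 0.50), Actg2 (-2.20 ± 0.45), Des (-4.82 ± 0.92) and Tnnt2 (-4.59 ± 0.90) had the same adjusted p of 0.058, and Tpm2 had -2.48 ± 0.61 (adjusted p = 0.0744). For Tnnt2 these were 2 counts in PF-TF and 46 in PF-WT, a pooled ratio of 26.3 (95% interval 6.87 to 223) in favour of WT. Of Des there were 1 and 31 counts, a ratio of 35.4 (5.9 to 1440). Without PF-WT replicate 2 the median was -2.91, and without PF-WT replicate 1 it was -1.18, with Myh11 at 0.65 and Cnn1 at 0.09. This comparison shares the PF-WT libraries with the stage comparison in WT and the PF-TF libraries with that in TF.

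At the small antral stage Tnnt2 stood apart from the other 9 genes in size of difference. It was lower in TF (4.01 ± 0.386 against 52.3 ± 3.59 CPM, log2 fold change -3.70 ± 0.55, edgeR adjusted p = 0.00621), the 1 gene of 10 to pass, where 5.34% of genes passed downwards and 4.61% upwards. With 72 counts against 898, the pooled ratio was 13.1 in favour of WT (95% interval 10.3 to 16.8, counting error only). It did not pass without SAF-TF replicate 1 (-3.60, adjusted p = 0.0786). Acta2 (-1.16 ± 0.48, adjusted p = 0.145), Tpm2 (-1.41 ± 0.57, adjusted p = 0.137), Myh11 (-1.40 ± 0.48, adjusted p = 0.0908), Myl9 (-0.88 ± 0.38, adjusted p = 0.165) and Actg2 (-0.82 ± 0.41, adjusted p = 0.215) had lower values in both SAF-TF than in both SAF-WT libraries. With Tnnt2 this made 6 of 10 genes without overlap and lower in TF, as for 32.5% of all genes. Tagln (-0.32 ± 0.60), Lmod1 (-0.34 ± 0.64) and Cnn1 (0.03 ± 0.38) overlapped. The value of Cnn1 took the other sign with RLE or upper quartile scaling, by DESeq2, with a replicate block and without SAF-TF replicate 1 (-0.49), and that of Lmod1 without SAF-TF replicate 2 (0.13). Des was the 1 gene with both SAF-TF libraries above both SAF-WT libraries (0.98 ± 0.56, adjusted p = 0.276), as for 31.3% of genes. The median over the 10 was -0.85, against 0.00 over all genes. Of the 10, 5 passed downwards when only the 4 small antral libraries were fitted. That fit called 3921 genes in either direction, against 1785 in the main fit. By DESeq2 3 of the 10 passed downwards (10.2% of genes). With a replicate block it was 2, where 1069 genes were called in either direction.

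A model with stage and source as separate terms gave the difference between TF and WT over both stages. Of the 10 genes 4 were lower in TF, where 5.65% of genes were lower and 2.16% higher. These were Tnnt2 (-3.89 ± 0.49, edgeR adjusted p = 0.00859), Acta2 (-1.81 ± 0.42, adjusted p = 0.0343), Tpm2 (-1.93 ± 0.46, adjusted p = 0.0369) and Actg2 (-1.47 ± 0.38, adjusted p = 0.048). Myl9 had -1.01 ± 0.28 (adjusted p = 0.0572), and Cnn1, at -0.16 ± 0.28, was nearest to 0. The count was 6 without PF-WT replicate 2, 2 without PF-WT replicate 1 or SAF-TF replicate 1, 1 without any other library, and 2 with library totals only or with a replicate block. Tnnt2 passed in all 8 fits with a library left out (adjusted p of 0.008 to 0.049). The number of all genes called changed between these fits too, as given at the end.

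The mix of contractile transcripts was also compared within each library, as the CPM of a gene in percent of the CPM of Acta2, a ratio that is free of the scaling between libraries. These shares are per transcript and not per length, so they are read between follicles and not between genes. In small antral follicles, 6 of the other 9 genes were higher relative to Acta2 in both SAF-TF than in both SAF-WT libraries and 3 were lower, where 70% of all other genes tested were higher and 3.53% lower. Acta2 itself was lower in both SAF-TF than in both SAF-WT libraries, and higher was the usual direction of a gene relative to it. The 3 lower were Tnnt2, with 3.24% and 3.36% of Acta2 in SAF-WT but 0.43% and 0.775% in SAF-TF, Myh11, with 9.65% and 8.51% but 7.68% and 7.73%, and Tpm2, with 65% and 55.1% but 47.7% and 55.1%, where the nearest pair of libraries differed by less than the digits shown. Des was at 0.197% and 0.256% in SAF-WT and at 0.96% and 1.04% in SAF-TF. Cnn1 was at 2.77% and 3.29% in SAF-WT and at 7.3% and 6.11% in SAF-TF. Tagln had 51.6% and 45% in SAF-WT but 84.3% and 91% in SAF-TF, and Lmod1, Actg2 and Myl9 were the others higher.

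In preantral follicles, 3 of the 9 genes were higher relative to Acta2 in both PF-TF libraries, 3 were lower and 3 overlapped, where 82.6% of all other genes were higher and 1.89% lower. The 3 higher were Myh11, with 15.2% and 14.5% in PF-WT against 106% and 35.6% in PF-TF, Cnn1, with 9.82% and 18.5% against 92.3% and 30.3%, and Myl9, with 62.4% and 72.3% against 210% and 139%. Tagln was lower here, with 66.2% and 45.6% in PF-WT against 24.9% and 36.5% in PF-TF, the opposite order to that in small antral follicles. Des and Tnnt2 were the other two lower, on 1 and 2 counts in PF-TF. Acta2 itself was at 24.5 and 46 CPM in PF-TF. With 2 libraries against 2, an exact permutation test cannot go below a two-sided p of 0.333, so none was run on these shares.

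**Figure D3:**
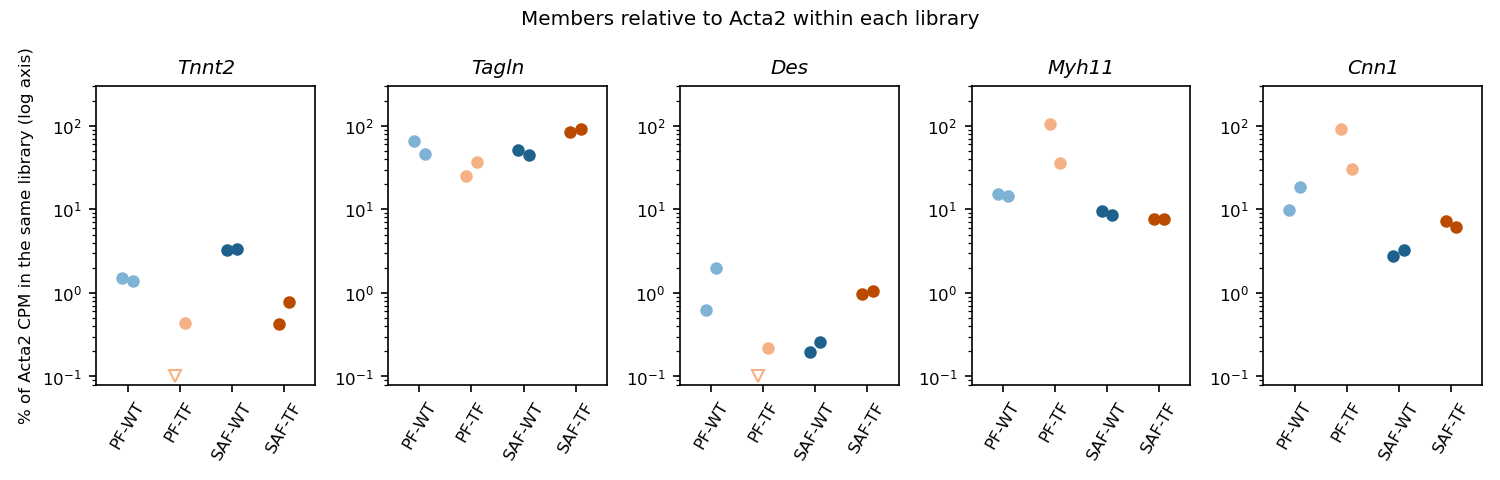
CPM of 5 genes in percent of the CPM of Acta2 in the same library (log axis), by group. Points are libraries and an open triangle marks 0 counts. Tnnt2 lies above 3% in SAF-WT and below 1% in SAF-TF, while Tagln and Des lie higher in SAF-TF and lower in PF-TF than in WT at the same stage.

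Across the 8 libraries, the log2 CPM of each gene was set beside the mean of the other 9. Pearson's r was 0.996 for Acta2 and Actg2, 0.995 for Tpm2, 0.988 for Myl9, 0.973 for Tagln and 0.961 for Lmod1. It was lower for Tnnt2 (0.897), Cnn1 (0.892), Myh11 (0.891) and Des (0.851). These are descriptions over n = 8 libraries that share the stage difference and their depth. Of 9571 other genes with a mean of at least 10 CPM, the 8 whose pattern was most like the mean of the 10 genes were Cav1 (r = 0.995), Nrp1, Ccl21a and Prkcdbp (0.994 each), Tcf21 (0.993), and Tpm1, Nr2f2 and Ifitm3 (0.992 each). Cav1, caveolin, averaged 25.3 CPM in PF-WT, 3.87 in PF-TF, 362 in SAF-WT and 151 in SAF-TF.

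Of 26 further contractile and thin filament genes, 16 rose, 0 fell and 10 did not pass with stage in WT (median log2 fold change 1.73), where 12.7% of all genes rose. In TF 16 rose, 1 fell and 9 did not pass (median 2.11), where 18.2% of all genes rose. Mylk, the kinase that phosphorylates the light chain, had 113 and 36 CPM in PF-WT against 15.2 and 24.1 in PF-TF, and 976 and 665 in SAF-WT against 193 and 189 in SAF-TF. It rose with stage in WT (3.47 ± 0.49, edgeR adjusted p = 0.000738) and in TF (3.28 ± 0.49, adjusted p = 0.000665). It was lower in TF over both stages (-2.01 ± 0.33, adjusted p = 0.0133) and in SAF (-2.10 ± 0.46, adjusted p = 0.0237). The latter call was lost without any 1 of the 4 SAF libraries (-2.35 to -1.80), and the former without PF-TF replicate 1 (-1.90) or SAF-WT replicate 1 (-1.87). Cald1, caldesmon, which blocks myosin from actin, rose in WT (2.91 ± 0.60, adjusted p = 0.00531) and in TF (4.48 ± 0.65, adjusted p = 0.00059). Smtn, smoothelin, rose in TF (2.02 ± 0.49, adjusted p = 0.0089), though not without SAF-TF replicate 1 (1.63), and had 1.23 ± 0.48 in WT (adjusted p = 0.0732). Tpm1, alpha-tropomyosin, rose in WT (2.31 ± 0.23, adjusted p = 0.000118) and in TF (2.84 ± 0.23, adjusted p = 2.93e-05). At the small antral stage, 4.61% of all genes were higher in TF than in WT and 5.34% lower. Of the 26 genes, 1 was higher and 3 were lower. Of these, 0 were lower without any 1 of the 4 SAF libraries and 6 without either PF-WT library, and 0 were higher without SAF-TF replicate 1 or either SAF-WT library.

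Among the regulators, Myocd and Srf did not move alike. Myocd, myocardin, had 31.9 and 11.1 CPM in PF-WT against 0.111 and 1.71 in PF-TF, and 62.9 and 47.3 in SAF-WT against 7.15 and 9.25 in SAF-TF. Both TF groups lay below both WT groups. Myocd was lower in TF over both stages (-3.48 ± 0.60, edgeR adjusted p = 0.0148), which did not pass without SAF-WT replicate 1 (-3.63, adjusted p = 0.0631). In SAF alone it was lower by the test too (-2.75 ± 0.65, adjusted p = 0.0317), and this was lost without any 1 of the 4 SAF libraries (-2.94 to -2.53) and with a replicate block (-2.73, adjusted p = 0.0586). Myocd rose with stage in TF (3.12 ± 0.78, adjusted p = 0.0101, and 2.37 to 6.17 with 1 library left out) and had 1.36 ± 0.62 in WT (adjusted p = 0.115). Srf, serum response factor, had 13 and 7.44 CPM in PF-WT against 14.1 and 8.23 in PF-TF, and 5.85 and 2.96 in SAF-WT against 5.94 and 5.64 in SAF-TF. It passed no comparison, with a log2 fold change of 0.25 ± 0.34 between TF and WT over both stages (adjusted p = 0.668). Of 15 regulators tested, 4 rose and 0 fell in WT, and 6 rose and 2 fell in TF, of which 0 fell without either PF-TF library or SAF-TF replicate 1. Between TF and WT in SAF, 0 were higher and Myocd was the 1 lower, where 4.61% of all genes were higher and 5.34% lower. With stage, 12.7% of all genes rose and 22.5% fell in WT, and 18.2% rose and 25% fell in TF.

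**Figure D4:**
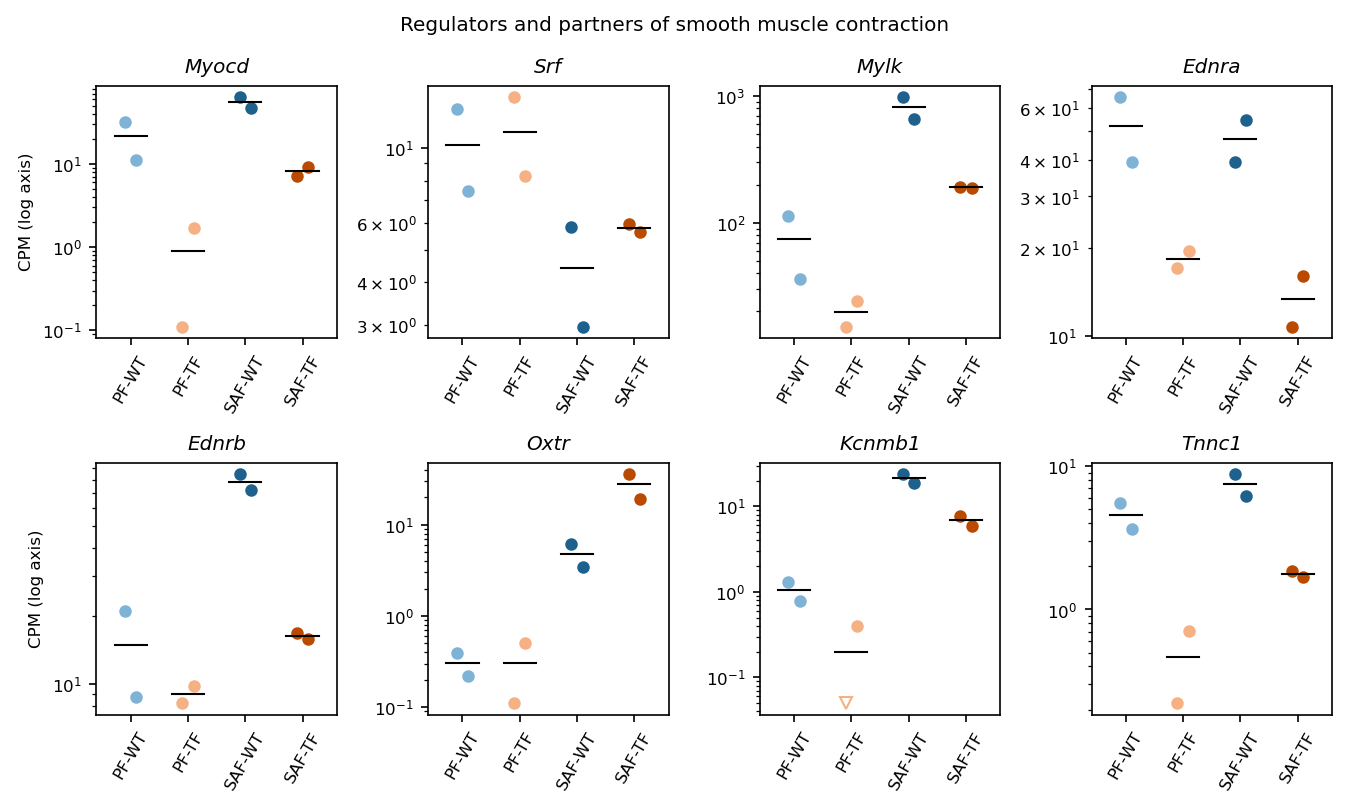
CPM (log axis) of 8 regulators and partners of contraction in each follicle by group, with group means as bars and 0 counts as an open triangle. Myocd is lower in both TF groups than in both WT groups, Srf is not, and Oxtr is above 19 CPM in SAF-TF against at most 6.08 in SAF-WT.

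In small antral follicles the endothelin receptors were lower in TF than in WT, and the receptors for oxytocin and prostaglandin F were higher. Of 24 receptors, ligands and channels tested, 10 rose and 0 fell with stage in WT, where 12.7% of all genes rose and 22.5% fell. In TF 10 of the 24 rose and 3 fell, where 18.2% of all genes rose and 25% fell. Without SAF-WT replicate 1, 5 rose in WT, without SAF-TF replicate 1, 6 rose in TF, and 0 fell in TF without PF-TF replicate 1 or either SAF-TF library. Between SAF-TF and SAF-WT 3 were higher and 4 lower, but 1 higher without SAF-TF replicate 1 or either SAF-WT library, 0 lower without SAF-TF replicate 1 or SAF-WT replicate 1, and 6 lower without either PF-TF library. Over all genes, 4.61% were higher and 5.34% lower in SAF-TF than in SAF-WT. Kcnmb1, a subunit of the calcium-activated potassium channel of smooth muscle, rose with stage in WT (4.35 ± 0.64, edgeR adjusted p = 0.000989) and in TF (4.96 ± 0.77, adjusted p = 0.000823, and 4.16 to 8.97 with 1 library left out). Ednra, an endothelin receptor, had 65.3 and 39.4 CPM in PF-WT against 17.1 and 19.5 in PF-TF, and 39.3 and 54.6 in SAF-WT against 10.8 and 16.1 in SAF-TF. It was lower in TF over both stages (-1.66 ± 0.25, edgeR adjusted p = 0.0105, lost without SAF-WT replicate 1 at -1.72), and in SAF (-1.80 ± 0.35, adjusted p = 0.0159, lost without SAF-TF replicate 1 at -1.53 and without SAF-WT replicates 1 and 2 at -2.02 and -1.55). Its stage effects did not pass (-0.15 ± 0.33 in WT and -0.44 ± 0.34 in TF). Ednrb, the other endothelin receptor, was lower in SAF-TF at 16.7 and 15.7 CPM than in SAF-WT at 85 and 72.3 CPM (-2.28 ± 0.39, adjusted p = 0.0103). This was lost without SAF-TF replicate 1 (-2.32) or SAF-WT replicate 1 (-2.16). Oxtr, the oxytocin receptor, was higher in SAF-TF, at 36 and 19.3 CPM, than in SAF-WT, at 6.08 and 3.44 CPM (2.53 ± 0.53, adjusted p = 0.0206). Oxtr did not pass without SAF-TF replicate 1 (2.02) or SAF-WT replicate 2 (2.18), nor without SAF-WT replicate 1 (3.0, adjusted p = 0.0892). Ptgfr, the prostaglandin F receptor, which the luteal marker list also holds, was at 291 and 246 CPM in SAF-TF and at 4.02 and 1.66 in SAF-WT (6.55 ± 0.42, adjusted p = 0.000111).

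Since Tnnt2 is a troponin, genes of striated muscle were set beside it. Of 20 such genes, 10 were measured well enough to test. Of these, 1 rose and 1 fell with stage in WT, where 12.7% of all genes rose and 22.5% fell. In TF 3 rose and 2 fell, where 18.2% of all genes rose and 25% fell. Between TF and WT, 1 of the 10 was lower in SAF and 2 were lower over both stages, with 0 higher. Over all genes, 5.34% were lower and 4.61% higher in SAF, and 5.65% lower and 2.16% higher over both stages. Of the 10, 7 had negative values in either comparison. Among those with positive values, Myl1 had 1.81 ± 0.57 in SAF (edgeR adjusted p = 0.0745) and Myh3 had 3.75 ± 1 over both stages (adjusted p = 0.0732). Tnnc1, the calcium-binding troponin subunit of heart and slow muscle, had 5.52 and 3.66 CPM in PF-WT against 0.222 and 0.702 in PF-TF, and 8.83 and 6.16 in SAF-WT against 1.87 and 1.69 in SAF-TF. Like Tnnt2 it was lower in TF over both stages (-2.59 ± 0.48, edgeR adjusted p = 0.0173), though not without PF-TF replicate 1 (-2.25) or SAF-WT replicate 1 (-2.62). Myl4, the atrial light chain, was lower in SAF-TF at 2.75 and 3.5 CPM than in SAF-WT at 21.1 and 24.8 CPM (-2.87 ± 0.49, adjusted p = 0.0104), lost without SAF-TF replicate 1 (-2.70), SAF-WT replicate 1 (-2.98) or SAF-WT replicate 2 (-2.75). The striated actins were near 0, with 0 to 10 counts of Acta1 and 0 to 21 of Actc1 per library. Tnni3, cardiac troponin I, showed another pattern, with 361 and 562 CPM in PF-WT against 329 and 378 in PF-TF, and 234 and 272 in SAF-WT against 158 and 300 in SAF-TF.

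The cytoskeletal actins that all cells make changed less than the muscle actins. Actb, beta-actin, rose in WT from 1300 ± 53.8 to 4160 ± 575 CPM (1.68 ± 0.21, edgeR adjusted p = 0.000438) and in TF (1.27 ± 0.21, adjusted p = 0.00121). Actg1, cytoplasmic gamma-actin, did not pass in WT (0.49 ± 0.21, adjusted p = 0.0921) or TF (0.33 ± 0.21, adjusted p = 0.217). The nonmuscle myosins Myh9 (0.51 ± 0.55) and Myh10 (0.14 ± 0.26) did not pass in WT either. Tpm4, a tropomyosin paralog, rose in WT (2.24 ± 0.22, edgeR adjusted p = 0.000109) and in TF (3.19 ± 0.22, adjusted p = 1.93e-05). Vim, vimentin, rose in WT (2.27 ± 0.37, adjusted p = 0.00166) and in TF (3.13 ± 0.39, adjusted p = 0.000242). Of the 13 cytoskeletal paralogs tested, 5 rose and 2 fell in WT, where 12.7% of all genes rose and 22.5% fell. In TF 7 rose and 1 fell, where 18.2% of all genes rose and 25% fell. The difference between these stage effects and those of Acta2 and Actg2 was not tested. Myl12a of this list was lower in TF than in WT in PF (-1.20 ± 0.17, edgeR adjusted p = 0.043) and in SAF (-1.05 ± 0.17, adjusted p = 0.00895). Over both stages it had -1.13 ± 0.13 (adjusted p = 0.00859). The PF call was lost with library totals only, with a replicate block and in most fits with 1 library left out (-1.36 to -1.11). The SAF call was lost without SAF-TF replicate 1 (-1.04), SAF-WT replicate 1 (-1.02) or SAF-WT replicate 2 (-1.08). In PF, in SAF and over both stages alike, 1 of the 13 was lower and 0 were higher. Over all genes, 0.151% were lower in PF, 5.34% in SAF and 5.65% over both stages. The shares of all genes that were higher were 0.0669%, 4.61% and 2.16% in the same order.

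Many pericyte and stroma markers rose with stage, as the contractile genes did. Over all genes, 12.7% rose with stage in WT and 18.2% in TF, and 5.34% were lower in SAF-TF than in SAF-WT. The summed CPM of the 10 genes was 292 to 935 in PF-WT, 146 to 184 in PF-TF, 4450 to 5420 in SAF-WT and 2070 to 3040 in SAF-TF. Of 11 pericyte markers, 6 rose with stage in WT and 9 in TF, with 0 falling by edgeR, at an unadjusted p under 0.05 and by DESeq2. Without PF-WT replicate 2 or SAF-WT replicate 1, 2 rose in WT, and without SAF-TF replicate 1, 4 rose in TF. Their summed CPM was 8.43 to 20 in PF-WT, 8.42 to 13.8 in PF-TF, 94 to 95.1 in SAF-WT and 56.7 to 72.4 in SAF-TF, and PF-TF replicate 1 had 6 of the 11 at 0. Between TF and WT, their sums overlapped at the preantral stage, where 0 of 11 passed (median log2 fold change -0.36), and 1 of 11 was lower at the small antral stage (median -0.06). Abcc9, a potassium channel subunit of pericytes, rose in WT (4.04 ± 0.74, adjusted p = 0.00275) and in TF (4.47 ± 0.81, adjusted p = 0.00188, and 3.64 to 9.24 with 1 library left out). Cspg4, the NG2 proteoglycan, did not pass in WT (0.14 ± 0.98) or TF (0.29 ± 0.98). Rgs5, a regulator of G protein signalling that the receptor list also holds, had 20 and 1 counts in PF-WT against 19 and 0 in PF-TF, and 171 and 163 in SAF-WT against 142 and 113 in SAF-TF. Of 16 stroma and fibroblast markers, 13 rose in WT and 15 in TF, and 5 were lower in SAF-TF than in SAF-WT (1 without SAF-WT replicate 1 or either SAF-TF library). Their sum was 241 to 586 CPM in PF-WT, 63.5 to 144 in PF-TF, 6660 to 9620 in SAF-WT and 1690 to 2450 in SAF-TF, the same order of groups as for the 10 genes. The part of pericytes and stroma in the results above was not tested.

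Further marker lists differed in direction between TF and WT. In SAF-TF against SAF-WT, 2 of 14 oocyte markers were lower and 0 higher. There 2 of 12 granulosa and 1 of 11 surface epithelium markers were higher and 0 lower. Surface epithelium sums overlapped between TF and WT at both stages. Oocyte and granulosa sums are given with library depth above. By edgeR, 9 of 14 oocyte and 7 of 12 granulosa markers fell with stage in WT, where 22.5% of all genes fell. For TF follicles these were 14 oocyte and 4 granulosa markers, where 25% of all genes fell. Of both lists, 0 rose by edgeR in WT or TF. Over all genes, 4.61% were higher and 5.34% lower in SAF-TF than in SAF-WT, and 5.65% were lower in TF over both stages. Endothelial sums stood in the same order of groups as those of the 10 genes. They came to 29.9 to 41.4 CPM in PF-WT, 24.6 to 26.1 in PF-TF, 226 to 256 in SAF-WT and 110 to 169 in SAF-TF, and 1 of 15 markers was lower in SAF-TF and 0 higher, with a median log2 fold change of 0.37. Theca and interstitial markers summed to 4990 to 5900 CPM in SAF-WT and 18500 to 30900 in SAF-TF, and 5 of 13 tested were higher and 5 lower in SAF-TF. Star (5.31 ± 0.42) was among the 5 higher and Ptch1 (-2.64 ± 0.34) among the 5 lower. Star, Cyp11a1, Lhcgr and Hsd3b1 stand in the luteal list too, so the theca and luteal sums are not separate. Luteal markers summed to 3430 to 4140 CPM in SAF-WT and 26900 to 37600 in SAF-TF, and all 10 were higher in SAF-TF. Macrophage and immune markers summed to 275 to 347 and 1080 to 1430 CPM, and 5 of 14 were higher in SAF-TF. Erythroid markers summed to 2020 to 5380 CPM in the WT libraries and 9.75 to 624 in the TF libraries, and 4 of 5 tested were lower in TF over both stages. Between the PF-WT libraries, replicate 1 had 3.21 times the summed CPM of the 10 genes in replicate 2, along with 2.43 times that of stroma markers, 2.37 times that of pericyte markers, 4.73 times that of macrophage markers and 2.66 times that of erythroid markers. Their part in the contractile gene results was not tested.

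**Figure D5:**
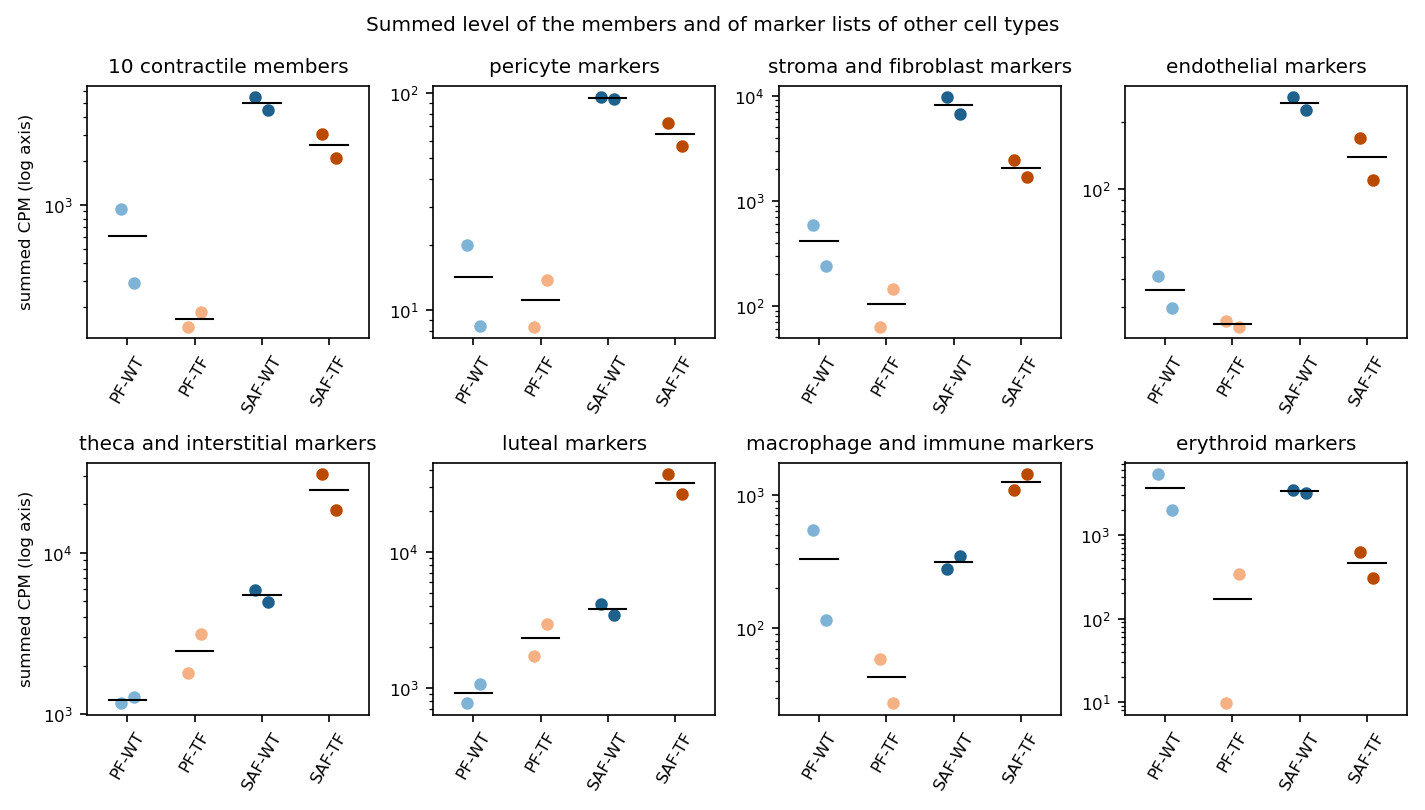
Summed CPM (log axis) of the 10 contractile genes and of 7 marker lists in each follicle by group, with group means as bars. The contractile, pericyte, stroma and endothelial sums are lower in SAF-TF than in SAF-WT, while theca, luteal and macrophage sums are higher there. Single markers did not all follow their sum. Of 15 endothelial markers, 10 had positive log2 fold changes in SAF-TF over SAF-WT and 5 negative ones, and of 11 pericyte markers 4 and 7. The theca list shares Star, Cyp11a1, Lhcgr and Hsd3b1 with the luteal list, and its markers went both ways. Erythroid sums are lower in both TF groups.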

How the data were processed

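RNA of 8 single mouse follicles was sequenced, and the authors deposited 1 table for TF and 1 for WT libraries. HISAT2 2.0.1 and GRCm38 are the aligner and build named, per the submitters' processing notes. The sources used here give no read counter, annotation or strand setting. Per the file headers, the deposited tables hold raw counts per gene and library. The authors' normalized columns are a signal, a group mean of scaled counts, beside which stand the authors' log2 ratio of SAF to PF and an FDR, an adjusted p-value by a test that the sources do not name. Counts of the 21997 genes in both tables (22129 listed for TF, 22138 for WT) were joined. As each source has its own table, TF against WT cannot be told apart from any difference in how the tables were made.

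The filter on low counts was filterByExpr with the 4 groups (minimum count 10, minimum total 15), which left 17925 genes, all 10 contractile genes among them. With TMM factors, edgeR 4.0.16 under R 4.3.3 gave the main quasi-likelihood test, with 1 mean per group and 4 residual degrees of freedom, or 5 in the additive model of stage and source. P-values were adjusted by Benjamini-Hochberg over the 17925 genes, and calls were made under 0.05. Each standard error is the log2 fold change over the root of its F statistic. Library depth is given with the results. Intervals of ratios (95%, exact, on pooled counts) cover counting error only, as reads are not counts of separate molecules. The test was checked on simulated counts.

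The members and gene lists were chosen with earlier results of these data known. Genes named are all members and a choice from up to 4 genes of smallest p per list and comparison, a set of fixed partners and paralogs, genes overlapping a member, and the 8 genes most like the members' mean. Some genes of smallest p in their list are not named. Alternatives were RLE factors, upper quartile factors, library totals, no low-count filter, a mean of at least 10 CPM, DESeq2 1.42.0, only the 4 libraries compared, a replicate block and each library left out in turn. Those for gene lists and for genes that are no members were added after seeing the data. Where 1 library is left out, the lone library is assumed to vary like the other groups. Promoter windows are RefSeq's for GRCm38.p6 and transcripts GENCODE's.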

Additional observations from a re-analysis of the deposited data

Results flagged for a closer look

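The stage effect of Des differed between TF and WT by the interaction test, with a difference of log2 fold changes of 5.80 ± 1.09 (edgeR adjusted p = 0.0447). In TF the stage effect was 6.73 ± 0.87, against 1 count over the PF-TF libraries, and in WT it was 0.93 ± 0.59. The call was lost with the replicate block (adjusted p = 0.0881) and in each fit with 1 library left out (5.07 to 6.06, adjusted p of 0.0545 to 0.165) except that without PF-TF replicate 2 (8.02).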

How the results depend on the processing

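Over all alternatives, the 10 genes kept direction and side of the threshold in 150 of 158 stage values in WT and 150 of 158 in TF, and the summed levels of the 10 moved by less than the spread of replicates with other scaling. The source comparison in PF called 39 genes, and 1322 by DESeq2, 16 with library totals, 23 at a mean of at least 10 CPM, 207 without a filter and 3 with only the 4 libraries compared. Of the contractile genes, 0 were lower there, but 7 by DESeq2 and 5 without a filter. In SAF the count was 1785, and 2849 by DESeq2 and 3921 with only the 4 libraries, with 3 and 5 contractile genes lower in place of 1. Over both stages DESeq2 called 3131 genes in place of 1400, and library totals left 2 contractile genes lower in place of 4. The interaction called 162 genes and 810 by DESeq2. At a mean of at least 10 CPM, where Des was not tested, 0 contractile genes passed it, and the stage comparison in TF called 4910 genes in place of 7744. The cause of these shifts was not tested.

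With 1 library left out, genes called ran from 1 to 935 (source in PF), 143 to 2468 (source in SAF), 40 to 1859 (both stages), 28 to 343 (interaction), 5136 to 8166 (stage in TF) and 3075 to 6594 (stage in WT). Contractile genes called ran from 0 to 7 lower in PF, 0 to 5 lower in SAF, 1 to 6 lower over both stages, 0 to 1 in the interaction, 8 to 10 higher with stage in TF and 8 to 9 in WT.

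The shared replicate numbers did not pair the libraries (deviations of same-numbered libraries correlated at -0.13 to 0.14). With the replicate block, genes called were 6 (source in PF), 1069 (source in SAF), 603 (both stages) and 74 (interaction), and contractile genes 2 lower in SAF, 2 lower over both stages and 0 in the interaction.

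Some values changed sign. For source in SAF, Cnn1 (0.03) took -0.03 (DESeq2), -0.03 (RLE factors), -0.01 (upper quartile factors) and -0.06 (replicate block). The stage effect of Ednra in WT (-0.15) took 0.11 with upper quartile factors. With 1 library left out, it ran from -0.48 to 0.37 (positive without PF-WT replicate 1 or SAF-WT replicate 1). Cnn1 then ran from -0.77 to 0.09 for source in PF, -0.49 to 0.42 in SAF, -0.41 to 0.08 over both stages and -0.13 to 0.84 in the interaction. Myh11 ran from -1.09 to 0.65 for source in PF and Lmod1 from -1.04 to 0.13 in SAF. In the interaction, Myl9 ran from -0.62 to 0.80, Tnnt2 from -0.19 to 3.98 and Tpm2 from -0.31 to 1.95, the negative value of each being the one without PF-WT replicate 1. Counts in PF-TF limit Des, Lmod1 and Tnnt2, which had at most 2 counts over both libraries.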
